A study of Mus musculus with 87 samples.

Results

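Groups of Chr4-cl KO mice that differ in their cross to the 129 strain were compared by ETn capture-seq. The libraries labelled Chr4-cl KO/KO and B6x129X1/SvJ (F2) from matings 1, 2 and 3, taking the first library of each animal, gave 16 F2 KO animals. All libraries labelled Chr4-cl KO/KO and B6x129X1/SvJ (F1), of both generations, gave 8 F1 KO animals. These are 24 of the 87 libraries analysed. The deletion was made in B6 embryonic stem cells, and KO mice were mated with 129X1/SvJ to found the F1 animals. A further mating of F1 KO/WT mice with 129X1/SvJ and an intercross gave the F2 parents. All 24 animals lack both copies of a chromosome 4 cluster of genes for KRAB zinc finger proteins, and there is no untreated or wild type animal on either side. Mating 1 (BA27227 x BA27232, a KO/WT and a KO parent) gave 8 F2 KO animals, mating 2 (BA2728 x BA27084) gave 4 and mating 3 (C7416 x C7249, both KO/WT) gave 4. BA2728 was read as BA27228, a sequenced KO/WT mouse like BA27084, and the ancestor filter for mating 2 rests on this reading. C7416 and C7249 were themselves offspring of matings 1 and 2. The F1 KO animals were 4 offspring of T3913 x T3921, both KO/WT, and 4 offspring of a second generation, T09673 x T00869, which are 2 of the former 4. Littermates share alleles, so the tests describe the families sequenced. Ages are not given in the labels used here. The DNA came from 13 tails and 3 ears on the F2 KO side and from 5 ears, 2 blood samples and 1 tail on the F1 KO side, so strain and tissue are largely confounded and cannot be told apart in the whole set.

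ETn elements are endogenous retroviruses of the mouse that move by copying their RNA into DNA and inserting it elsewhere in the genome. Each copy is flanked by long terminal repeats (LTRs), and inbred strains such as C57BL/6 (B6) and 129 differ in the sites where copies sit. KRAB zinc finger proteins bind retrotransposon sequences and recruit silencing factors to them. A new copy that arises after fertilisation is present in some of an animal's cells, while an inherited copy is present in all of them.

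Capture used RNA probes for the LTR ends, and a locus is seen as a cluster of uniquely mapped reads whose mates map to an ETn repeat. Of 1274 ETn probes, 673 start with TG and 583 end with CA, the bases that bound an LTR. The most frequent probe of each kind is shown because these sequences decide which elements were captured, with the bounding bases in capitals.
Probe at the LTR start: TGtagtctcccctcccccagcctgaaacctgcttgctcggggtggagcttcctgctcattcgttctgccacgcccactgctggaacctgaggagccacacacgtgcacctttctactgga
Probe at the LTR end: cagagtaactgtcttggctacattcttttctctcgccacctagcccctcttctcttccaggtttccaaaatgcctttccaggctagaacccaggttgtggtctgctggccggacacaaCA

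An inherited B6 copy is part of the reference genome, so its sequence can be read there. At the locus near Gm17233, which no F2 KO animal carried, the minus strand of mm9 at chr14:73587307-73587426 holds 40 bases before the LTR and then the LTR start, again in capitals. Nearly the same bases precede the LTR start at a locus near Abca13 and at the locus near AA792892. The 40 bases are therefore not taken as the junction with the surrounding genome.
B6 copy near Gm17233: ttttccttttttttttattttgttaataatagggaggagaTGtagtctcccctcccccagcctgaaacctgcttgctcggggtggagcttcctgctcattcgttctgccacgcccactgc

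Private and 129-derived insertions are not in the reference, which shows the site without the copy. The middle 120 bases of the read cluster are given, on the plus strand of mm9, for the strongest private insertion of each side and for a 129-derived copy on chromosome 9. They lie at chr8:64106875-64106994, chr8:10770707-10770826 and chr9:71267726-71267845. Reads can come from either side of a copy, so the cluster may span the insertion point or lie beside it. The position of that point is not given.
M05666 (F2 KO), Palld: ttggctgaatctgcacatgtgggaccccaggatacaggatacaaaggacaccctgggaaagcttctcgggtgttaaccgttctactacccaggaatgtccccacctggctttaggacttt
T00436 (F1 KO), between genes: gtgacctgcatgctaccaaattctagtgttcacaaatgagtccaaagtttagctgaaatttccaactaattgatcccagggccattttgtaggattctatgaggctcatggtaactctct
129-derived, near Grinl1a: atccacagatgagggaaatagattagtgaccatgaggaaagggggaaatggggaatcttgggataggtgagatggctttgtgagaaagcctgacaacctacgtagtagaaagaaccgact

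The 24 libraries held 607211 to 902477 ETn-paired reads, with medians of 697900 for F2 KO and 744587 for F1 KO. Values are given as reads per 1000000 of this total (RPM). A locus was called at 10 RPM, which is 6.07 reads in the shallowest and 9.02 in the deepest library. The deletion could be read from a locus inside the cluster, chr4:145080501-145083011, which was chosen in 29 libraries that have the cluster. It held 1.46 to 16 RPM in F2 KO (median 6.27) and 1.38 to 38 RPM in F1 KO (median 5.06), against 387 to 444 RPM in 9 F2 KO/WT offspring and 542 to 596 RPM in 8 F2 WT offspring. All 24 animals therefore lay far below the animals with the cluster, but 2 F2 KO and 1 F1 KO libraries passed 10 RPM there. They were C7414 at 11.1, C7417 at 16 and T00869 at 38 RPM.

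Some libraries stood apart. C6923, C6924 and C6926, which are all 3 F2 KO ear libraries, and H04408 are labelled male, but chromosome Y took 0.00516 to 0.00677% of their reads, against 0.142 to 0.165% in males such as C6733, M05143 and H032265. T00869, an F1 KO ear library, held the 38 RPM at the deleted locus. It also held 7 of 65 129-derived loci at 10 to 50 RPM, where the other 23 libraries held 0. Values without these libraries are given where stated, the comparisons of single matings were not repeated without them, and the origin of their reads was not tested.

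A private insertion was a locus called in 1 animal, called in no other animal or cell line, and without a read in the animal's sequenced ancestors. F2 KO animals carried 463 in all and F1 KO animals 30. In mating 1, the ear libraries C6923, C6924 and C6926 held 0, 0 and 4, and the tail libraries C7414, C6765, C7415, C7417 and C6733 held 0, 23, 30, 43 and 87. In mating 2, C5734 held 0, H04408 20, C7250 54 and H032265 60. In mating 3, M05137 held 0, M05666 1, M05143 50 and M05668 91. Within each F2 mating, animals without any private insertion thus stood beside animals with 50 or more. Among the F1 KO animals of the first generation, the blood libraries T09673 and T09674 held 8 and 2, the tail library T00436 held 18 and the ear library T00869 held 1. In the second generation, all from ears, C6428 held 1 and C6427, C6429 and C6430 held 0.

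**Figure D1:**
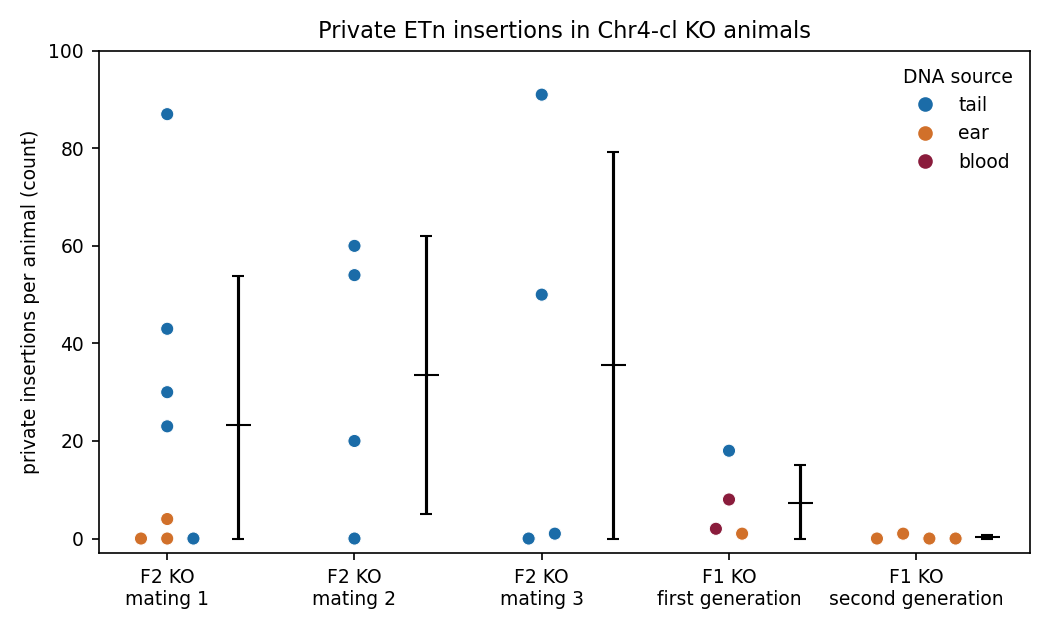
Private ETn insertions per animal (count, y axis) in the 3 F2 matings and both F1 generations. Each point is 1 animal coloured by DNA source, and bars give the mean and SD, cut at 0. The 2 highest animals, at 87 and 91, are F2 KO tails, and the highest F1 KO animal, at 18, is the only F1 KO tail.

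The mean was 28.9 ± 31.8 private insertions in F2 KO (SD, n = 16) and 3.75 ± 6.34 in F1 KO (n = 8), with medians of 21.5 and 1. Over all pairs of an F2 KO and an F1 KO animal, the percent in which the F2 KO animal had more minus the percent in which it had fewer was 39.8, and the exact two-sided permutation p of the rank sum was 0.116 (adjusted over 6 comparisons 0.174). The ranges overlapped from 0 to 18, and the difference did not pass the threshold of 0.05. Without the 4 animals whose chromosome Y reads go against the label, the F2 KO mean was 36.6 (n = 12), the exact p 0.0565 and the adjusted p 0.113. Without the tail library T00436 the F1 KO mean was 1.71 ± 2.87 (n = 7). Without T00869 it was 4.14 and the adjusted exact p 0.183. At least 1 private insertion was found in 11 of 16 F2 KO and 5 of 8 F1 KO animals (Fisher's exact p = 1, adjusted 1). Without the 4 animals this was 9 of 12 and 5 of 8 (Fisher's exact p = 0.642).

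Mating by mating, the mean was 23.4 ± 30.5 (n = 8), 33.5 ± 28.4 (n = 4) and 35.5 ± 43.7 (n = 4) in matings 1, 2 and 3. Against the 8 F1 KO animals the exact two-sided permutation p was 0.284, 0.117 and 0.38, or 0.38, 0.352 and 0.38 adjusted over the 3 matings. None passed the threshold.

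Tissue moved with the counts. The 13 F2 KO tails had a mean of 35.3, and the single F1 KO tail had 18, a value within the range of those tails. With 1 tail on the F1 KO side, that comparison cannot pass the threshold. In ears, the means were 1.33 (n = 3) and 0.4 (n = 5), with an exact two-sided permutation p of 1 (smallest possible 0.0179). With loci called at 5 RPM the ear means were 6 and 1 (exact permutation p = 0.196), and at 20 RPM both were 0. The 3 F2 KO ears are all libraries whose chromosome Y reads go against the label, so the ear comparison cannot be made without them. The part of tissue in the difference across all 24 animals was not tested. Chromosome Y reads moved with the counts as well in F2 KO, but not in F1 KO. The 5 F2 KO animals in which chromosome Y took over 0.1% of reads, all tails, held 50 to 91 private insertions, and the other 11 held 0 to 43. In F1 KO, the 3 animals with chromosome Y reads held 0 or 1 and the other 5 held 0 to 18. This split was noticed after the counts were seen, and it was not tested.

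Private insertions had few reads. Their median was 14.2 RPM in F2 KO (quartiles 11.9 and 18.8, n = 463) and 13.3 RPM in F1 KO (11.3 and 17.3, n = 30), or 10 and 10.5 reads. Inherited 129-derived loci held 228 RPM in F2 KO and 212 RPM in F1 KO animals that carried them. The level of a single inherited copy, taken as the median 129-derived locus in the F1 parents, was 179.5 RPM. Of the private insertions, 79% in F2 KO (366 of 463, exact 95% interval 75.1 to 82.7) and 86.7% in F1 KO (26 of 30, 69.3 to 96.2) lay under 20 RPM. The threshold of 10 RPM sets the lowest value such a locus can have.

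A single private insertion reached the level of an inherited copy. It lay in an intron of Palld, which encodes the actin-associated protein palladin, at chr8:64106528-64107341, and held 201 reads or 293 RPM in M05666. No other animal had a read there. It was the only private insertion of M05666. The next 5 in F2 KO held 38.1 to 49.3 RPM. They lay between genes near Svip, Gpr139 and Tbl2 in M05668, in an intron of Ttll11, a tubulin polyglutamylase gene, in C6765, and in the UTR of Dennd3, a gene for a regulator of Rab proteins, in C6733. In F1 KO, the strongest lay between genes on chromosome 8 in T00436, at 37.2 RPM, and near Gpr101 on chromosome X in T09673, at 33.2 RPM. The others of the leading 6 were in introns of BC057022, Zdhhc9 and Gm12514 and in a non-coding exon of Gm17118, at 17.7 to 29.1 RPM. These 6 held at most 20.7% of the level of an inherited copy.

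Genes held 232 of 463 F2 KO insertions (50.1%, exact 95% interval 45.5 to 54.8) and 19 of 30 F1 KO insertions (63.3%, 43.9 to 80.1), most of them in introns. Annotated genes cover 39.8% of the genome, and a cluster of a median 453 bp reaches a gene more easily than a point does. Read clusters overlapped coding exons in 19 of 463 and 1 of 30 insertions. F2 KO tails held 459 of all 493 private insertions, and also the 10 coding exon overlaps with the highest RPM. They included Aff3, a nuclear factor of transcription elongation, at 28.4 RPM in C7417, the keratin gene Krt78 at 28.3 RPM in C6733, and Cct7, a subunit of the chaperonin TRiC, at 22.6 RPM in C7250. Nup210l, Mcm3, Msh5, Eif4g3, Lztr1, Hal and Dst followed at 14.8 to 19.8 RPM. Mcm3 encodes a subunit of the replicative helicase and Msh5 a protein of meiotic recombination. These clusters hold 11 to 23 reads each and do not show that an exon was interrupted. The Dst cluster lay within 1000 bp of a match to an ETn capture probe in the reference. Among all private insertions, 22 of 463 in F2 KO and 0 of 30 in F1 KO lay near such a match.

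Further libraries were available for 2 F2 KO animals with private insertions. In a repeat library of the C7415 tail, 30 of 30 private insertions had a read (exact 95% interval 88.4 to 100%). In the adult tail of C6733, 20 of 87 had one (23%, 14.6 to 33.2%), and 0 of 87 in its brain, blood and kidney and in both testis libraries, which allows up to 4.15% in each (exact 95% bound). Other strong loci without a read in the ancestors were not private because relatives outside the 24 animals also carried them. These lay 9099 bp from Snx10 in C7417, at 267 RPM, and in an intron of Sntb1 in M05143, at 291 RPM.

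Loci that came from the 129 parent were defined without the 24 animals, as those with 100 RPM or more in both F1 parents, T3913 and T3921, and under 10 RPM in all 16 B6 libraries. There were 65 on autosomes. T3913 and T3921 are parents or grandparents of all F1 KO animals, so the set leaves out loci found only in the F2 families. F2 KO animals carried 47 to 62 of the 65 (56.3 ± 4.63, SD, n = 16) and F1 KO animals 43 to 59 (50.8 ± 5.82, n = 8). The exact two-sided permutation p was 0.036 and 0.0719 adjusted over 6 comparisons, so the difference did not pass the threshold at 10 RPM. Without T00869 the F1 KO mean was 49.6 and the adjusted exact p 0.0221. With 50 RPM as the level that counts as carried, which removes the 7 weak loci of T00869, the means were 56.3 and 49.9 and the adjusted exact p 0.0158. Without the 4 animals whose chromosome Y reads go against the label it was 0.127. The F2 line had a further 129 mating, so a higher F2 KO count is the direction that the breeding sets.

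The summed level of the 65 loci gives a dose relative to the F1 parents, which carry 1 copy of each. It was 1.14 ± 0.0763 in F2 KO (SD, n = 16, range 0.943 to 1.25) and 0.923 ± 0.123 in F1 KO (n = 8, range 0.783 to 1.18), and the groups overlapped. The exact two-sided permutation p was 0.000702 (adjusted 0.0021), and the net percent of pairs in which F2 KO was higher was 81.2. The F2 parents descend from a further mating with the strain that these loci come from. The breeding itself sets a higher F2 KO dose, so the p describes the cross and is no independent finding. M05666 had the lowest dose in F2 KO and T09673 the highest in F1 KO. Without T00869 the adjusted exact p was 0.00602, and without the 4 animals whose chromosome Y reads go against the label 0.00457. With the first F1 generation alone (n = 4) it was 0.15. The dose is not a copy number: at the locus inside the cluster, libraries with 1 copy held a median of 414 RPM (9 KO/WT offspring) and libraries with both 550.4 RPM (8 WT offspring). Over the loci at 50 RPM or more, the median level relative to the F1 parents was 1.16 to 1.44 in F2 KO and 1.07 to 1.27 in F1 KO animals.

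**Figure D2:**
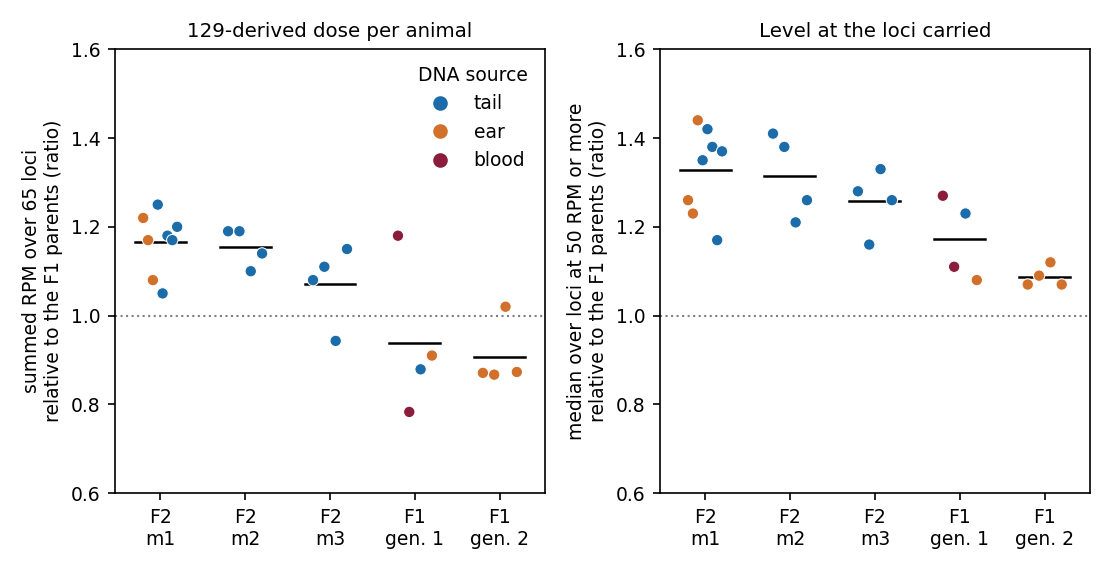
Left, 129-derived dose per animal (summed RPM over 65 loci relative to the F1 parents) and, right, the median level of the loci at 50 RPM or more (ratio to the F1 parents). Points are animals coloured by DNA source, lines are means, m1 to m3 are matings, gen. 1 and 2 are the F1 generations, and the dotted line marks the F1 parents. The F2 KO animals lie mostly above 1 and the F1 KO animals mostly below it on the left.

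B6-derived polymorphic loci held 100 RPM or more in all 16 B6 libraries and under 10 RPM in at least 1 of 21 F2 parents or KO/WT and WT offspring. There were 85 on autosomes, in 72 groups of loci within 10 kb, since the ends of a single copy can give a locus each. F2 KO animals carried 49 to 60 (53.9 ± 3.49, n = 16) and F1 KO animals 66 to 85 (72.4 ± 5.8, n = 8), without overlap. The exact two-sided permutation p was 1.36e-06 (adjusted 8.16e-06), the smallest it can be. The loci were chosen for their absence in relatives of the F2 KO animals, so lower F2 KO counts follow in part from the choice and the p is no independent support. Over all 1825 autosomal loci with 100 RPM or more in every B6 library, a set chosen after seeing the data and not by F2 relatives, F2 KO animals carried 1789 to 1800 (1794 ± 3.42) and F1 KO animals 1806 to 1825 (1811 ± 6.23). They again did not overlap (exact permutation p = 1.36e-06). The 85 loci are all among the 1825, and the group means differ by about as much in both sets. The second p is therefore not separate support. In both sets the breeding also sets the direction, since the F2 line had a further mating away from B6. For the 85 loci the groups also did not overlap without T00869 or without the 4 animals (adjusted exact p = 4.89e-05 and 4.76e-05). T00869 carried all 1825 and all 85, of which 18 of the 85 held 10 to 50 RPM. That range held 9 to 22 of the 85 in F2 KO (mean 13.4) and 2 to 18 in F1 KO (mean 7.75). At 50 RPM or more the counts were 40.5 ± 5.05 in F2 KO (28 to 48) and 64.6 ± 5.26 in F1 KO (56 to 71).

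**Figure D3:**
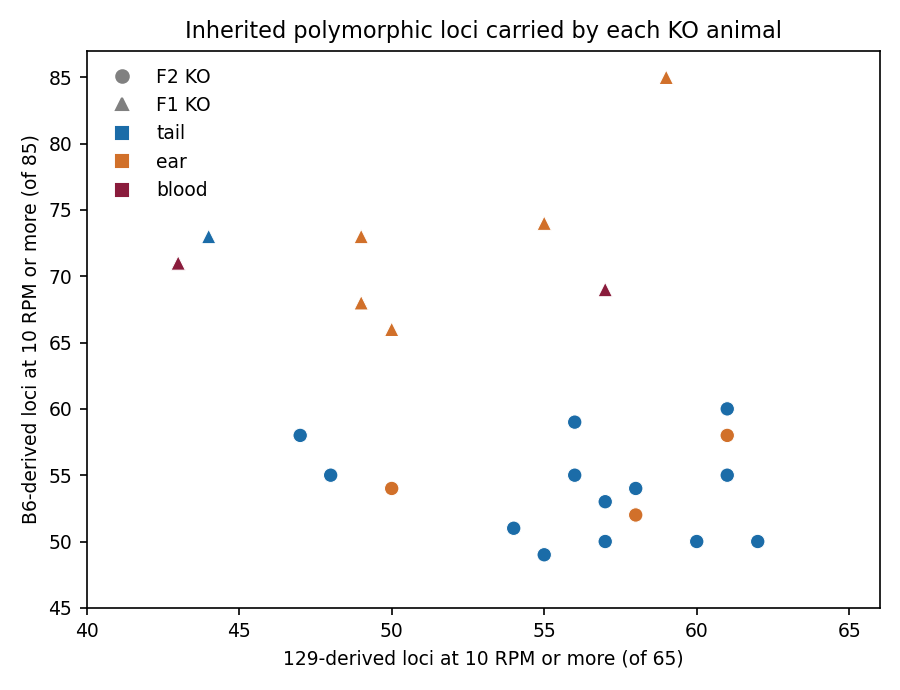
129-derived (x axis, of 65) and B6-derived (y axis, of 85) loci at 10 RPM or more in each animal, circles for F2 KO and triangles for F1 KO, coloured by DNA source. The groups overlap along the x axis and are apart along the y axis, with T00869 at 85.

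Most 129-derived loci were found on both sides. Of the 65, 31 were carried by all 16 F2 KO animals, 17 by all 8 F1 KO animals and 6 by all 24. The share of carriers was higher in F2 KO for 40 loci and lower for 17. Of the 85 B6-derived loci it was lower in F2 KO for 55 and higher for 10. No F2 KO animal carried 9 of them, while every one passed 10 RPM in at least 1 F1 KO animal. For 2 of the 85, both near Abca13, that animal was T00869 alone, at 19 and 23.1 RPM. Its parents had means of 3.74 and 1.22 RPM there, so these 2 are not shown to be inherited in F1 KO. On chromosome 4, which holds the deletion, F2 KO animals carried 117 of 128 animal and locus pairs of 129-derived loci (91.4%) and F1 KO animals 43 of 64 (67.2%). Over all 65 loci the shares were 86.6% and 78.1%. For B6-derived loci the shares on chromosome 4 were 90.9% in F2 KO and 100% in F1 KO, against 63.5% and 85.1% over all 85. Pairs of linked loci in littermates are not independent, and these shares were not tested.

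Carriage differed between matings and along chromosomes. On chromosome 7, the 6 129-derived loci from chr7:54586495 to chr7:86623390 were carried by all 8 F1 KO animals and by no animal of mating 3. They were carried by 6 or 7 of 8 animals in mating 1 and by 2 of 4 in mating 2. The 4 129-derived loci from chr7:17836034 to chr7:30843747 were carried by 3 of 4 animals of mating 3. On chromosome 11, a locus in an intron of Gm884 was carried by all 8 animals of matings 2 and 3, by none of mating 1 and by 4 of 8 F1 KO animals, while the locus at Slit3 on the same chromosome was carried by all 16 F2 KO and 7 of 8 F1 KO animals. A locus in the UTR of Slc35d2 on chromosome 13, seen in F2 parents and in no F1 parent, was carried by 9 of 16 F2 KO animals and had no read in any F1 KO animal.

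**Figure D4:**
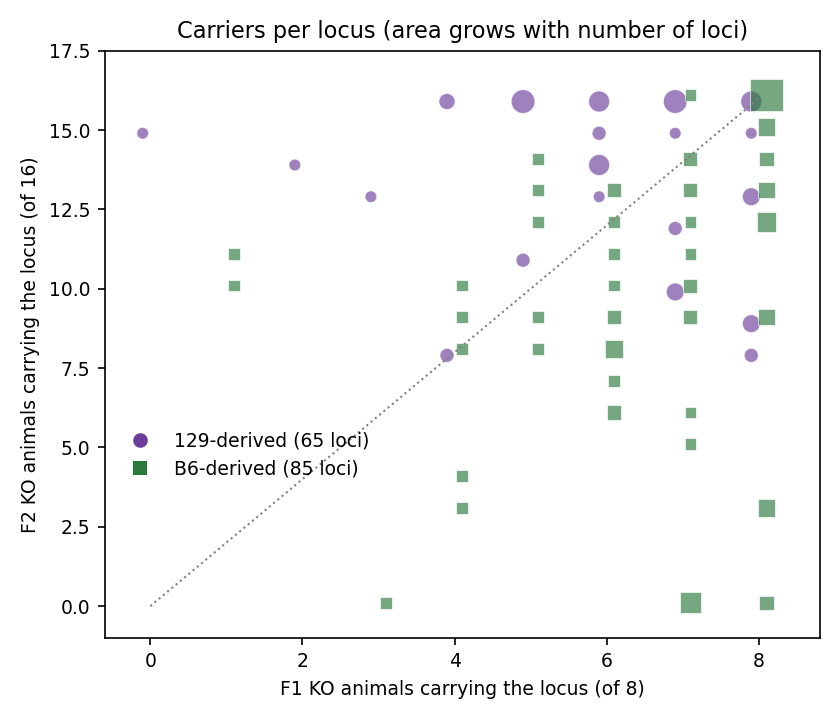
Number of F1 KO animals (x axis, of 8) and F2 KO animals (y axis, of 16) carrying each locus, purple circles for 129-derived and green squares for B6-derived loci. Area grows with the number of loci at a point and the dotted line marks equal shares. Purple points lie mainly along the top and green squares mainly below the line.

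Read counts were also compared locus by locus with edgeR's quasi-likelihood test, over 2817 loci with 10 RPM or more in at least 2 of the 24 libraries. At an adjusted p of 0.05, 180 loci differed (6.39%), 57 of them higher (2.02%) and 123 lower (4.37%) in F2 KO. With TMM normalization the split was 31 higher and 135 lower. Of the 65 129-derived loci 3 were higher and 0 lower (0 lower and 9 higher at an unadjusted p under 0.05, and 0 and 4 by DESeq2), with a median log2 difference of 0.30 against 0.02 over all loci. Of the 85 B6-derived loci, whose choice favours lower F2 KO values, 2 were higher and 18 lower, with a median of -0.47. Without T00869, 173 loci were called, 2 of them 129-derived and higher. Without the 4 animals whose chromosome Y reads go against the label, 150 were called, 1 of them 129-derived and higher. The B6-derived calls stayed at 2 higher and 18 lower in number. Summing the reads of each litter gave 83 loci (6 higher, 77 lower), and ear libraries alone gave 75 (10 higher, 65 lower).

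The 129-derived locus with the lowest adjusted p lay in an intron of Zbtb7c, a BTB zinc finger gene, at chr18:76100118-76102032. It held 165 to 274 RPM in 15 F2 KO animals and 1.46 RPM in H04408. It had no read in 7 F1 KO animals and held 8.15 RPM in T00869, although both F1 parents carry it (mean 183 RPM). The fitted log2 difference was 7.48 ± 0.84 (SE, edgeR adjusted p = 3.08e-07). The 4 second generation F1 KO animals descend from T09673 and T00869, which held 0 and 8.15 RPM there. Their values are therefore not separate from those of their parents, while the fit treats all 8 as independent. The remaining loci called higher were carried by all 24 animals and differed by level. One lay 57421 bp from Grinl1a on chromosome 9, at 269 to 362 RPM in F2 KO and 199 to 308 RPM in F1 KO, with overlap (log2 difference 0.29 ± 0.07, edgeR adjusted p = 0.0141). The other lay 34622 bp from Hcrtr2, the orexin receptor 2 gene, at 324 to 398 and 236 to 362 RPM (0.23 ± 0.07, edgeR adjusted p = 0.0369). Neither was called with reads summed per litter (edgeR adjusted p = 0.216 and 0.265) or without the 4 animals whose chromosome Y reads go against the label (0.0536 and 0.0973), and the Hcrtr2 locus was not called without T00869 (0.0634). The loci near Anln and Clec2e came next and were not called (edgeR adjusted p = 0.112 and 0.175). The 5 129-derived loci with the lowest adjusted p among those lower in F2 KO were all on chromosome 7, near Dbx1, Polg, Mrgpra1, Lysmd4 and Atp10a, and none was called (edgeR adjusted p = 0.638 to 0.692).

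Among B6-derived loci, the lowest adjusted p values lay on chromosomes 14 and 5. The locus in a non-coding exon of Gm17233, whose LTR start is printed above, held 0 to 6.15 and 186 to 263 RPM. The groups did not overlap there, and the log2 difference was -6.66 ± 0.38 (edgeR adjusted p = 1.66e-12). On chromosome 5, the loci near Gm11115 and in an intron of Slc4a4, a sodium bicarbonate cotransporter gene, held at most 1.38 and 3.71 RPM in F2 KO, and 7 of 8 F1 KO animals carried them. C6427 was the exception. The locus near AA792892, also on chromosome 5, passed 10 RPM in all 24 animals, but held 11.4 to 21 RPM in F2 KO and 109 to 141 RPM in those 7 F1 KO animals, so a locus counted as carried at 10 RPM can hold a small share of the level seen elsewhere (log2 difference -2.88 ± 0.22, edgeR adjusted p = 3.13e-10).

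The loci higher in F2 KO went the other way. A pair near Abca13, a lipid transporter gene, at chr11:9869763-9872686 and chr11:9875239-9877358, each hold a probe for an LTR end and lie within 10 kb of each other, so they are not counted as separate copies. The first held 170.3 to 249 RPM in 10 F2 KO animals, 11.1 RPM in C7417 and at most 4.99 RPM in the other 5. It held at most 4.43 RPM in 7 F1 KO animals and 19 RPM in T00869, and the F1 parents had a mean of 3.74 RPM, though the locus is in every B6 library (mean 237 RPM). The log2 differences were 4.86 ± 1.13 and 4.83 ± 1.25 (edgeR adjusted p = 0.00659 and 0.0171). With reads summed per litter neither was called (edgeR adjusted p = 0.0797 and 0.0978). The loci near Pirt, Gm13053 and Gm13011 were not called (edgeR adjusted p = 0.575 to 0.62).

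**Figure D5:**
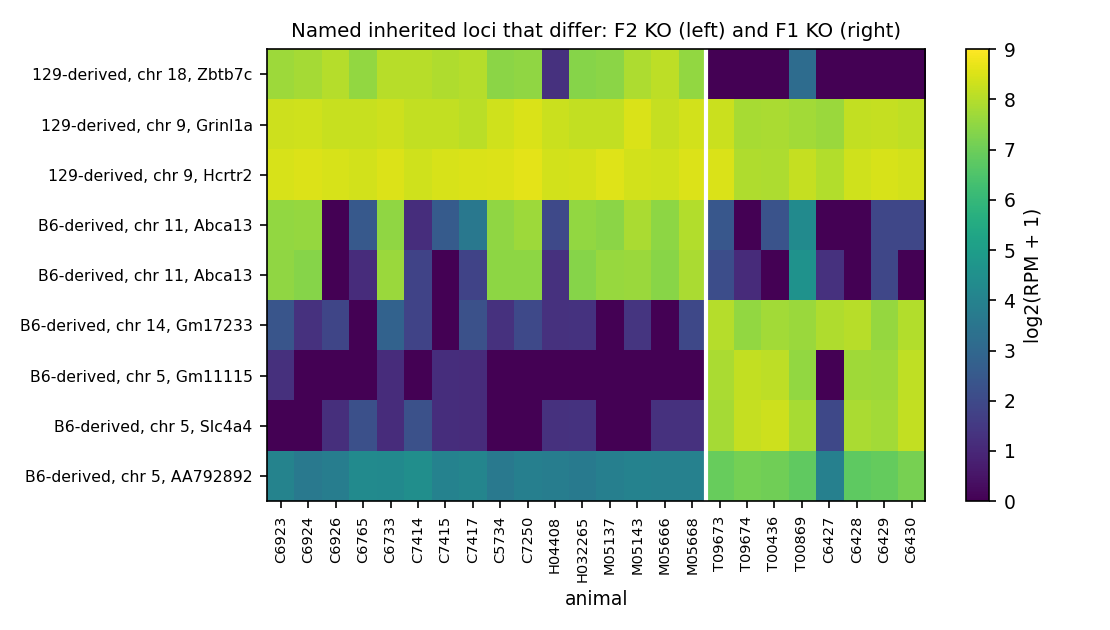
Level (log2 of RPM + 1, colour) of the inherited loci named in the text and called by edgeR, in each F2 KO animal left of the white line and each F1 KO animal right of it, labelled by origin, chromosome and gene or nearest gene. The Gm17233 row is dark in all 16 F2 KO animals and bright in all 8 F1 KO animals, and the Zbtb7c row shows the reverse apart from H04408.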

How the data were processed

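ETn capture-seq of genomic DNA was analysed in 24 of 87 libraries. Per the labels and methods, Bowtie (mm9), SAMtools and bedtools were used by the authors, in versions not given in the sources used here. Unique, deduplicated reads were kept where the mate overlapped an ETn repeat, and were merged across gaps of up to 1000 bp. Values as deposited are counts of reads per region, neither normalized nor pooled. Regions of 10 RPM or more in any of the 87 libraries were joined within 1000 bp to 5018 loci. Genes came from GENCODE vM1 on NCBIM37, the same assembly as mm9, and the coordinates fit it (0 regions past a chromosome end).

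Numbers per animal were compared by exact two-sided permutation of the rank sum (midranks), with Benjamini-Hochberg adjustment over 6 comparisons and, for matings, over 3. Effects are given as the net percentage of pairs, one animal from each side, in which the F2 KO animal had more. Counts per locus were tested with edgeR 4.0.16 in R 4.3.3 on the library totals, with DESeq2 1.42.0 as an alternative, and SEs were derived from the F statistic. Scripts ran in Python 3.11.15 with scipy 1.17.1, and were tested on simulated data. Intervals are exact 95% binomial and cover counting error only, since reads carry no molecular identifiers. Depth sets the smallest locus that can be called, 6.07 to 9.02 reads.

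The loci named are the 6 private insertions with the highest RPM on each side, up to 10 in coding exons by RPM, and the 5 loci with the lowest adjusted p in each direction in each inherited class. A locus that this rule picks is not reported here. Others named were chosen after their values were seen. The members and lists were chosen with earlier results of these data known. Alternatives changed the thresholds, depth, joining, filters, tissue, generations and normalization, and left out each mating and animal.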

Additional observations from a re-analysis of the deposited data

Results flagged for a closer look

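In groups of 4 to 10 animals, 36 combinations of group and measure were examined for a value far from the others. Such a value was found in 6. A share of 1 in 20 would be 1.8, but the groups and measures overlap, so this is no test against chance. In the second F1 generation, C6428 was the only animal with a private insertion, 1 against 0 in the other 3, and it also had the deepest library, 831324 reads against 726489 in the next. C6429 carried 55 129-derived loci, against 50 in the next animal, and its 129-derived dose was 1.02 against 0.873. Among all 8 F1 KO animals, T00436, the only tail library, had 18 private insertions against 8 in the next. T00869 carried 85 B6-derived loci against 74 in the next, and 18 of its 85 held 10 to 50 RPM. In F2 KO, C7417, C7414 and C7415 held 22, 19 and 18 loci in that range.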

How the results depend on the processing

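Values here are the effect in percent of animal pairs, or a count of loci. The private insertion comparison stayed short of the threshold in all 42 alternatives, with effects of 20.3 to 59.4% and adjusted p of 0.0571 to 1, the lowest for a difference of means. The comparisons of single matings did too. The 129-derived count (53.1%, adjusted p = 0.0719) passed the threshold without mating 3 (63.5%), with loci defined at 50 RPM (63.3%), with chromosome X (59.4%), and with carriage at 20 RPM (63.3%) or 50 RPM (65.6%). Leaving out single animals gave 46.4 to 66.1% there, past the threshold without C6733, M05666, T09673 or T00869 (adjusted p = 0.0364, 0.0364, 0.042 and 0.0221). The 129-derived dose lost the threshold with the first F1 generation alone (65.6%, adjusted p = 0.15) and kept it otherwise. The share of animals with a private insertion reversed with that generation alone, at -31.2 percentage points. The ear comparison ran from -40 to 30% when single animals were left out, and reversed without C6926. Its effect of 6.67% was 66.7% at 5 RPM, 33.3% after thinning and 0 at 20 RPM. B6-derived counts were lower in F2 KO in all 38 planned and added alternatives (-100 to -99.2%). The 180 loci called fell to 83 with reads summed per litter and 75 in ears alone, and ran from 149 to 186 without single animals. The effect was 0.08 (log2) in ears at the chromosome 7 locus near Mrgpra1, where it was -1.04 in all animals. Of 718 alternative values over the 20 inherited loci that the rule picks, 679 kept direction and side, 36 lost the threshold, 2 passed it and 1 reversed. The Hcrtr2 locus lost it in 19 and the Grinl1a locus in 6, among them without mating 1 or 3 (adjusted p = 0.0546 in both), in ears (0.554) and with the second F1 generation alone (0.174). The cause of these changes was not tested. Leaving out the 4 animals whose chromosome Y reads go against the label, and the set of 1825 B6 loci, were chosen after seeing the data. No paired analysis was possible because replicate numbers were given in accession order and pair no animals.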

Other observations

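Private insertions lay in 244 genes, of which 6 were hit more than once. Fgfr2, a fibroblast growth factor receptor gene, held an insertion in each of C6733, H032265 and M05668. Palld was hit in C7415 as well as in M05666, Mll3 in C6765 and C7415, Nebl in C7250 and the F1 KO animal T09673, Sema6a in C7250 and M05668, and Gm20388 in C7250 and M05143. No test was made of these numbers, which depend on gene length.

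Outside the polymorphic classes, edgeR called 52 loci higher and 105 lower in F2 KO. Of these, 43 and 84 were called in every B6 library, and 7 and 50 differed by 2-fold or more. The median log2 difference was 0.15 and -0.77. None lay on chromosome X, and the number of loci tested there is not given here. Of all 5018 loci, 2345 were called in every B6 library. Their number among the 2817 tested was not counted, so the 43 and 84 do not set the called loci apart.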
